A study of Mus musculus with 6 samples.

Results

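The platelet-derived growth factor (PDGF) genes of the mouse knee synovium, the soft lining of the joint, were read as 7 genes chosen by name: the ligand genes Pdgfa, Pdgfb, Pdgfc and Pdgfd, the receptor genes Pdgfra and Pdgfrb, and the receptor-like gene Pdgfrl. They are 7 of the 31017 genes in the count matrices, and all 7 were present in all 6 libraries. Dissociated live synovial cells were profiled by droplet-based 3' single-cell RNA sequencing (10x Genomics), where a molecular barcode, the UMI, lets every transcript be counted a single time. The 6 libraries were arthritic Notch3-/- knockout, arthritic wild type, arthritic with an anti-Notch3 monoclonal antibody, arthritic with an isotype control antibody, healthy Notch3-/- knockout and healthy wild type. Each group had 1 library made from the pooled tissue of 10 mice, and the sources used here do not give the age and background strain of the mice or the genotype of those given antibody. The arthritic mice had received K/BxN serum, which brings on joint inflammation through transferred autoantibodies and does not need lymphocytes of the recipient. The Notch3-/- change is not tied to a cell type in the labels, and the antibody was compared with its isotype control in arthritic mice alone.

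PDGF ligands are secreted dimers. The chains PDGF-A and PDGF-B are cut inside the cell by furin-type proteases, whereas PDGF-C and PDGF-D carry a CUB domain that has to be cut off, by plasminogen activators or related proteases, before they can bind. PDGFRA binds the A, B and C chains and marks fibroblasts, and PDGFRB binds the B and D chains and marks the mural cells (pericytes and smooth muscle) that wrap small vessels. Endothelial PDGF-B recruits mural cells to growing vessels, and PDGF acts on synovial fibroblasts as a growth and migration signal. Pdgfrl encodes a small protein that resembles the outer part of the receptors and has no kinase domain.

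RefSeq promoter windows of GRCm38.p6, read 250 bases upstream of an annotated start, were found for 4 of the 7 members in 5 windows. Of the ligand genes, the windows of Pdgfa, Pdgfc and Pdgfd are printed, since their levels are set against Notch3 targeting below. They were searched on both strands for TGGGAA, the core bound by RBPJ, the DNA-binding partner of the Notch receptors, and for TGANTCA, the AP-1 motif, and capitals mark the RBPJ core. The windows are chr5:138994282-138994531 (minus strand, inside an intron of 4 of 4 coding Pdgfa transcripts), chr5:138995038-138995194 (minus strand, shortened to leave out transcribed untranslated sequence), chr3:81036166-81036415 and chr9:6168236-6168485 (both plus strand), written 5′ to 3′.
Pdgfa, downstream window: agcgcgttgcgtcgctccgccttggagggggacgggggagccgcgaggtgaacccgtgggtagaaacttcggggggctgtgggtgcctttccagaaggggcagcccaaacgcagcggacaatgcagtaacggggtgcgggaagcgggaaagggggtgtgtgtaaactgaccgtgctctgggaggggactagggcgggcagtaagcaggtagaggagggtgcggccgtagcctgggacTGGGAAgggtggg
Pdgfa, upstream window: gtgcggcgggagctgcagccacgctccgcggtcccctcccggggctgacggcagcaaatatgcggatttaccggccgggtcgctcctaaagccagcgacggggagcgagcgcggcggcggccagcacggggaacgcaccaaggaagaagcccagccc
Pdgfc: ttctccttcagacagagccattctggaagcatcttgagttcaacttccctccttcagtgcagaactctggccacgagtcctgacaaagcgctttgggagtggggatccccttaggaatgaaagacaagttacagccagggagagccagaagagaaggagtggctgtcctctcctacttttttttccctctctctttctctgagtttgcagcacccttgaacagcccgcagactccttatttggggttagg
Pdgfd: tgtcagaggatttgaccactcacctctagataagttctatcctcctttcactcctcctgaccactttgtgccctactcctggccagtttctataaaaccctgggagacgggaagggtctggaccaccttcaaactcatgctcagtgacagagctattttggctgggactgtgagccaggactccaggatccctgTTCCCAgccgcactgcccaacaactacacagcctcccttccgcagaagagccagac
The downstream Pdgfa window held 1 RBPJ core that starts 13 bases before the annotated start, and the Pdgfd window held 1 that starts 56 bases before it. The other windows, that of Pdgfra included, held none, and no member window held the AP-1 motif. Of 32851 windows of 250 bases, 21.6% held the RBPJ core and 6.75% the AP-1 motif. A match describes the letters and shows no binding.

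In the GENCODE annotation of mm10 the genes are protein coding and lie on separate chromosomes apart from Pdgfa and Pdgfra, which are both on chromosome 5: Pdgfa at 138976014 to 138997370 (minus strand) and Pdgfra at 75152292 to 75198215 (plus strand). Pdgfb spans 79995874 to 80014977 on chromosome 15 (minus strand), Pdgfc 81036416 to 81214040 on chromosome 3, Pdgfd 6168584 to 6378850 on chromosome 9, Pdgfrb 61045150 to 61085061 on chromosome 18 and Pdgfrl 40926212 to 40990785 on chromosome 8 (plus strand for all 4).

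After filtering 17902 cells remained, and 2046 to 4906 of them came from each library. The median UMI count per barcode ran from 3988 in the arthritic wild-type library to 7561 in the healthy wild-type library. Cells were gated by markers that exclude all 7 members, into 11363 fibroblasts (1063 to 3635 a library), 4552 myeloid cells (493 to 1018), 1029 endothelial cells (118 to 215), 180 T or NK cells, 162 B cells and 100 mural cells (8 to 27), and in the 4 classes used below 10 of 10 own markers were detected in each library. Of the mural cells 27 lay near the gate's threshold. Levels are CPM, a gene's UMIs per 1000000 UMIs counted in the class within a library. They are relative levels, so that fewer expressing cells and less RNA per cell cannot be told apart. Any 2 libraries shared at most 28 barcodes. Notch3 itself, read in the mural class as the check of the labels, was at 31.8 CPM in the arthritic knockout library (2 UMIs) against 479 CPM in arthritic wild type, at 169 CPM under anti-Notch3 against 212 CPM under isotype, and at 0 in healthy knockout against 383 CPM in healthy wild type. The reads are 3' tags and the deleted stretch of Notch3 is not stated, so that a residual UMI does not speak against a knockout label, and an antibody need not lower the transcript.

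The A chain was the ligand with UMIs in every class, and its highest level was in mural cells. Pdgfa averaged 235 ± 67.7 CPM in mural cells, 26.3 ± 15.4 CPM in myeloid cells, 51.1 ± 18.2 CPM in fibroblasts and 60.4 ± 48.8 CPM in endothelial cells (SD, n = 6 libraries). Single libraries of the mural class had 270 CPM in arthritic knockout, 258 in arthritic wild type, 236 under anti-Notch3, 307 under isotype, 226 in healthy knockout and 109 in the healthy wild-type library, so that all 6 mural values lay above the fibroblast range, which ended at 81.1 CPM, and all but the healthy wild-type one above the endothelial range, which ended at 128 CPM. The mural values rest on 4 to 42 UMIs a library, and no mural library reached the 30 cells set for a fit. A fit with at least 5 cells a library, added after seeing the data, gave a log2 difference of 1.51 ± 0.261 for mural against fibroblast (SE; edgeR quasi-likelihood adjusted p = 0.000166) and 1.69 ± 0.277 for mural against endothelial (adjusted p = 6.283e-05). Pdgfa in fibroblasts against endothelial cells did not pass (log2 difference 0.35 ± 0.218, edgeR adjusted p = 0.194), although without the arthritic wild-type library the difference was 0.58 (adjusted p = 0.0468; 0.0468 to 0.553 over the alternatives). Myeloid cells had less Pdgfa than fibroblasts (-1.07 ± 0.195, edgeR adjusted p = 0.000149) and than endothelial cells (-0.72 ± 0.227, adjusted p = 0.0144). The last call was lost without the arthritic wild-type library (-0.56, adjusted p = 0.0660) and without the isotype library (-0.65, adjusted p = 0.0511). Fibroblasts, the largest class, held 65.8% to 87.7% of the Pdgfa UMIs of a library (median 75.4%), against 0.533% to 4.36% in mural cells.

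The B chain was read mainly in endothelial and myeloid cells. Pdgfb averaged 21.5 ± 6.65 CPM in myeloid cells and 71.0 ± 21.3 CPM in endothelial cells, against 0.200 ± 0.185 CPM in fibroblasts (SD, n = 6 libraries), and the 3 ranges did not overlap. Endothelial libraries had 69.5 CPM in arthritic knockout, 78.4 in arthritic wild type, 69.0 under anti-Notch3, 80.7 under isotype, 32.4 in healthy knockout and 95.9 in the healthy wild-type library. The healthy knockout library was the low one, with 16 UMIs. In mural cells, 0 of 100 cells had a Pdgfb UMI, which allows a share of cells with a UMI of up to 3.0% (3 counts of the total, counting error only) and sets no limit on the cells that express the gene at this depth, and over all libraries endothelial cells stood at least 9.63-fold above the mural floor of 3 counts. Myeloid cells had less Pdgfb than endothelial cells (log2 difference -1.27 ± 0.235, edgeR adjusted p = 0.000255) and more than fibroblasts (6.57 ± 0.335, adjusted p = 7.173e-11). Myeloid cells, being more numerous, nonetheless held 43.4% to 74.7% of the Pdgfb UMIs of a library and endothelial cells 19.3% to 45.1%. Platelets store PDGF, and the 10 platelet genes summed to 499 to 3139 CPM in myeloid and 15.7 to 55.4 CPM in endothelial libraries. Of these genes 4 to 6 were at 0 in a myeloid library, and Pf4 is also a leading gene of myeloid cluster 1. Their part in myeloid Pdgfb was not tested.

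The CUB-domain ligands were divided between classes in opposite ways. Pdgfc averaged 17.0 ± 4.30 CPM in myeloid cells and 14.2 ± 8.57 CPM in fibroblasts, a difference that did not pass (log2 difference 0.42 ± 0.286, edgeR adjusted p = 0.208; without the isotype library 0.70, adjusted p = 0.0382), and 1.41 CPM in endothelial cells, with 6 UMIs in all. Both were above endothelial cells, by 3.95 ± 0.631 for myeloid cells (adjusted p = 6.613e-05) and 3.52 ± 0.635 for fibroblasts (adjusted p = 0.000221). Pdgfd was the reverse: it averaged 10.2 ± 2.83 CPM in fibroblasts and 42.8 ± 12.4 CPM in endothelial cells, with 3 UMIs in 4552 myeloid cells (0.129 CPM). The 100 mural cells also had 3 UMIs, but at their lower total this was a mean of 9.51 ± 16.8 CPM. Pdgfd in mural cells against fibroblasts was not called under any setting. Endothelial Pdgfd was at 52.7 CPM in arthritic knockout, 21.6 in arthritic wild type, 55.2 under anti-Notch3, 37.3 under isotype, 48.7 in healthy knockout and 41.1 in the healthy wild-type library. The lowest endothelial value still lay above the highest fibroblast value of 15.3 CPM, and the fibroblast level was lower by the fit (log2 difference -1.60 ± 0.229, edgeR adjusted p = 2.35e-05). Fibroblasts held 72.0% to 88.4% of the Pdgfd UMIs of a library and 49.6% to 91.8% of the Pdgfc UMIs.

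The receptors split between stroma and vessel wall. Pdgfra averaged 211 ± 58.1 CPM in fibroblasts, against 32.1 CPM in mural, 1.87 CPM in myeloid and 2.57 CPM in endothelial cells, and fibroblasts held 97.9% to 99.0% of its UMIs in a library. Pdgfrb averaged 383 ± 127 CPM in mural cells (270 to 629 CPM), 0.801 CPM in myeloid cells, 55.0 ± 16.6 CPM in fibroblasts (28.1 to 75.2 CPM) and 6.10 CPM in endothelial cells, and the mural and fibroblast ranges did not overlap. Mural cells were higher than fibroblasts in Pdgfrb (log2 difference 2.15 ± 0.284, edgeR adjusted p = 5.801e-06) and lower in Pdgfra (-3.13 ± 0.401, adjusted p = 3.772e-06). Even so, mural cells supplied 2.16% to 5.35% of the Pdgfrb UMIs of a library and fibroblasts 91.9% to 96.7%. Pdgfrl followed the fibroblasts, with 91.9 ± 31.1 CPM there, 30.6 CPM in mural cells, 1.81 CPM in myeloid cells and 1.24 CPM in endothelial cells. Fibroblasts exceeded endothelial cells by 6.94 ± 0.357 for Pdgfra, 6.82 ± 0.379 for Pdgfrl and 3.95 ± 0.441 for Pdgfrb on the log2 scale (edgeR adjusted p at most 1.584e-06).

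**Figure D1:**
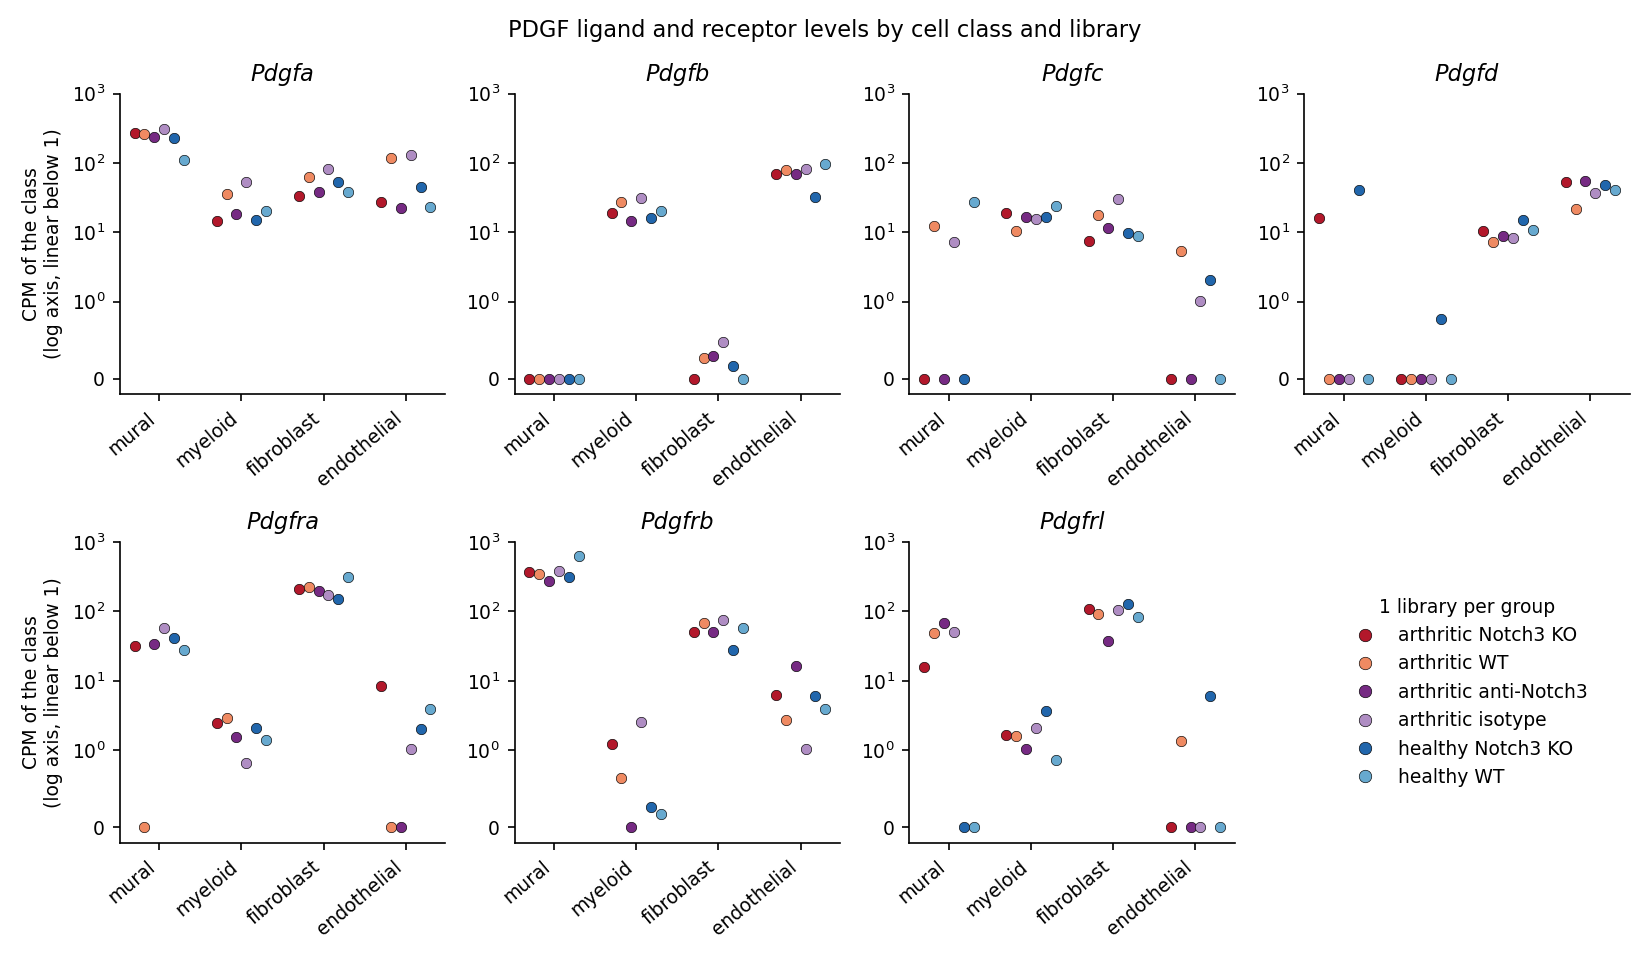
Level of each PDGF gene in 4 gated cell classes (CPM of the class on a log axis that is linear below 1), with 1 point per library coloured by group. Pdgfrb lay at 270 to 629 CPM in mural and 28.1 to 75.2 CPM in fibroblast libraries, Pdgfra was at 149 to 316 CPM in fibroblasts and at most 58.6 CPM elsewhere, and Pdgfb was highest in endothelial cells.

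Counted over the contrasts, 6 of 7 members passed the edgeR test for fibroblast against endothelial cells, where 50.8% of all genes tested did. For myeloid cells 6 of 7 passed against fibroblasts and 5 of 7 against endothelial cells, where 65.4% and 53.0% of all genes did. The myeloid value for Pdgfrb against endothelial cells (-2.43 ± 0.801, edgeR adjusted p = 0.0178) was lost without the healthy knockout library (-2.22, adjusted p = 0.0563) and without the anti-Notch3 library (-1.67, adjusted p = 0.0900). In the added mural fits, 4 of 7 members passed against fibroblasts and 6 of 7 against endothelial cells, against 15.5% and 23.4% of all genes. In those fits the median over all genes was itself -0.41 for mural against fibroblast and -0.36 for mural against endothelial, and of all called genes 442 were higher and 1361 lower in mural cells than in fibroblasts. With DESeq2 the median was 0.03 and the split 1240 to 696, and the directions of Pdgfa, Pdgfra, Pdgfrb and Pdgfrl did not change. Mural cells also carried fibroblast marker transcripts, with summed levels of 4229 to 17890 CPM for the 10 fibroblast markers (0 to 3 of them at 0 in a library), against 33770 to 55690 CPM in the fibroblast class. Mural Pdgfra was highest, at 58.6 CPM, in the isotype library, which had the highest such sum, and the part of these transcripts in the mural Pdgfra and Pdgfrl values was not tested. The mural against endothelial value of Pdgfra (3.65 ± 0.783, edgeR adjusted p = 0.00117) was lost without the isotype library (2.72, adjusted p = 0.0604) and was -0.37 with classes from clusters (adjusted p = 0.875).

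In single cells, a Pdgfra UMI was seen in 61.0% of fibroblasts (95% interval 60.1% to 61.9%) and a Pdgfrb UMI in 24.2% (23.4% to 25.02%). Of fibroblasts 17.1% had UMIs of both receptors, 44.0% of Pdgfra without Pdgfrb, 7.16% of Pdgfrb without Pdgfra and 31.8% of neither. With each cell thinned to 2000 UMIs these shares were 3.21%, 29.0%, 6.03% and 61.8%, so cells without a UMI cannot be read as cells without the receptor. Myeloid cells gave the background, with Pdgfra UMIs in 0.747% and Pdgfrb UMIs in 0.198% of cells, at a median depth of 4218 UMIs against 5696 in fibroblasts. In mural cells a Pdgfrb UMI was seen in 61.0% (50.7% to 70.6%), a Pdgfa UMI in 54.0% (43.7% to 64.0%) and both receptors in 1 of 100 cells, at a median depth of 2889.5 UMIs. A Pdgfb UMI was seen in 18.1% of endothelial cells (15.8% to 20.6%) and 8.26% of myeloid cells (7.48% to 9.10%), against 0.106% of fibroblasts, the background for this ligand. The intervals, exact Clopper-Pearson for shares and exact Poisson for levels, cover counting error and not the spread between mice.

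Within the fibroblast class the PDGF genes differed between clusters, which were built without any member gene and are called by their leading genes. Cluster 0, led by Clic5 and Prg4 (Prg4 encodes lubricin, a product of lining cells), had the highest median Pdgfa of the fibroblast clusters, at 110 CPM (83.03 to 134 CPM in 6 libraries). It also had the lowest median Pdgfrb, at 8.98 CPM (1.61 to 11.7 CPM), and the lowest median Pdgfrl, at 18.9 CPM (8.06 to 27.0 CPM). Pdgfrb in cluster 0 stayed below every value of the other 9 fibroblast clusters with at least 20 cells apart from 1 library of cluster 12 at 11.03 CPM. Clusters 2, led by Ccl11 and Smoc2, and 4, led by Pi16 and Dpp4, had the lowest Pdgfa, with medians of 10.8 CPM (3.97 to 15.7) and 9.29 CPM (4.81 to 15.0), and their ranges did not overlap with that of cluster 0. Cluster 12, led by the tendon and cartilage genes Chad and Angptl7, had the highest median Pdgfrl (156 CPM, 93.7 to 298). The highest median Pdgfrb was that of cluster 3, led by C1qtnf3 and Mfap4, at 102 CPM, with 84.9 to 140 CPM in the 3 libraries that had at least 20 of its cells. Pdgfc was at 21.99 to 38.3 CPM in cluster 8 (Saa3, Cxcl5) and 9.12 to 27.3 CPM in cluster 3 (3 libraries each), and at 14.4 to 72.6 CPM in cluster 12, 7.36 to 34.4 CPM in cluster 9 (Sfrp4, Hmcn1) and 2.08 to 20.2 CPM in cluster 0 (6 libraries each). The ranges of clusters 3, 8, 9 and 12 overlap, and cluster 2, at 0 to 0.807 CPM, lay below all 5. Pooled over libraries, the mural cluster 22 had 457 CPM of Pdgfrb, 278 CPM of Pdgfa and 2 UMIs of Pdgfra (5.67 CPM).

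**Figure D2:**
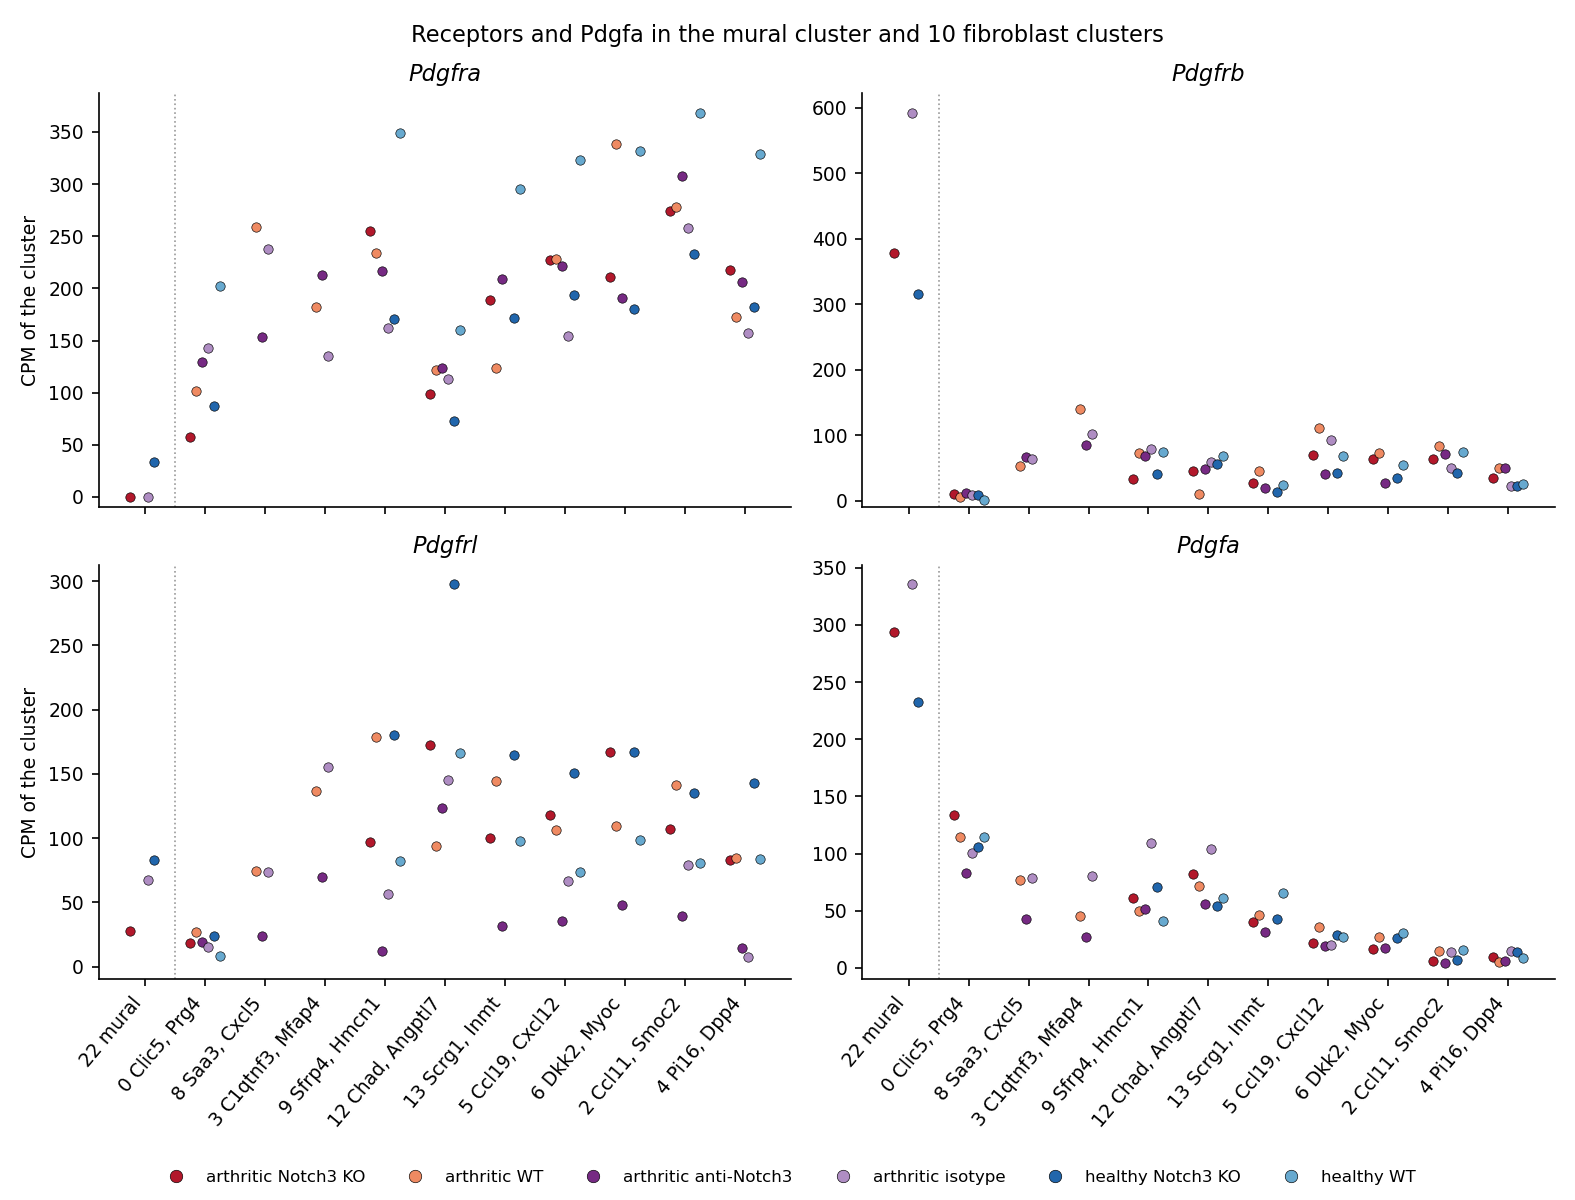
CPM of Pdgfra, Pdgfrb, Pdgfrl and Pdgfa in the mural cluster and 10 fibroblast clusters (horizontal axis, cluster number and leading genes), with 1 point per library that had at least 20 cells. Cluster 0 combines the lowest Pdgfrb (median 8.98 CPM) with the highest Pdgfa of the fibroblast clusters (median 110 CPM), and the mural cluster stands above all of them in Pdgfrb and Pdgfa.

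Outside the fibroblasts, Pdgfb was at 44.2 to 142 CPM in endothelial cluster 11 (Rbp7, Gpihbp1) and 20.6 to 72.8 CPM in endothelial cluster 16 (Selp, Vwf) over 6 libraries, and at 14.1 to 57.6 CPM in myeloid cluster 7 (Ms4a7, Trem2; 4 libraries) and 18.1 to 38.1 CPM in myeloid cluster 1 (Vsig4, Lyve1; 6 libraries). In both classes the ranges overlap. Pdgfd was at 53.6 to 88.1 CPM in cluster 11 and 11.3 to 25.7 CPM in cluster 16, without overlap. Myeloid Pdgfc was at 37.2 to 56.6 CPM in cluster 1 (6 libraries), above its range of 0 to 19.8 CPM in cluster 7 (4 libraries).

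The study's treatment question was how the arthritic joint differs when Notch3 is removed or blocked. The member that changed most was endothelial Pdgfa. It was at 27.4 CPM in arthritic knockout (13 UMIs, interval 14.6 to 46.9) against 116 CPM in arthritic wild type (86 UMIs, 92.97 to 144), and at 22.1 CPM under anti-Notch3 (8 UMIs, 9.54 to 43.5) against 128 CPM under isotype (124 UMIs, 107 to 153). Healthy libraries had 44.6 CPM in knockout and 23.5 CPM in wild type. The arthritic wild-type and isotype values were thus high and the other 4 low, with no overlap. With the 2 arthritic pairs fitted together, Pdgfa fell by 2.19 ± 0.326 on the log2 scale with Notch3 targeted (SE; edgeR adjusted p = 1.155e-09, DESeq2 adjusted p = 0.0104; 5.736e-10 to 0.0104 over the alternatives). In these fits knockout and antibody are taken as repeats, 1 residual degree of freedom remains and the test borrows its spread from all genes. In the endothelial class 1109 of 6771 genes passed, 16.4%, and 1 of the 3 members tested did. DESeq2 called 244 of the same 6771 genes.

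The share of endothelial cells with a Pdgfa UMI was 3.72% in arthritic knockout against 35.2% in arthritic wild type, and 5.08% under anti-Notch3 against 32.2% under isotype. Class depth moved the same way, with a median of 1859 UMIs in arthritic knockout against 5285.5 in arthritic wild type, and 2734.5 under anti-Notch3 against 3852 under isotype. Thinned to 2000 UMIs a cell, the shares were 3.09% in arthritic knockout against 20.7% in arthritic wild type, and 4.76% under anti-Notch3 against 19.0% under isotype. Thinning left out 118 of 215 cells in arthritic knockout against 12 of 128 in arthritic wild type, and 34 of 118 under anti-Notch3 against 40 of 208 under isotype, and the part of depth in the difference was not tested.

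The cluster make-up of the class also differed. Cluster 16 (Selp, Vwf) held 23.7% of the endothelial cells in arthritic knockout against 69.5% in arthritic wild type, and 33.9% under anti-Notch3 against 58.7% under isotype. Inside cluster 16, Pdgfa was at 18.9 CPM (3 UMIs) in arthritic knockout against 126 CPM (81 UMIs) in arthritic wild type, and at 12.9 CPM (2 UMIs) under anti-Notch3 against 126 CPM (92 UMIs) under isotype, with 10.3 and 11.3 CPM in healthy knockout and wild type. Inside cluster 11 (Rbp7, Gpihbp1) it was at 36.3 CPM under anti-Notch3 against 169 CPM under isotype and at 30.7 CPM in arthritic knockout. The arthritic wild-type value there, 50.6 CPM, rests on 5 UMIs. Healthy knockout was at 63.1 CPM (20 UMIs) and healthy wild type at 33.9 CPM (12 UMIs) in cluster 11. The healthy knockout value thus lay above the arthritic wild-type one, unlike in the whole class. Stress genes known to be induced by dissociation summed to 29040 CPM in arthritic knockout against 11750 CPM in arthritic wild type endothelial cells, and to 22560 CPM under anti-Notch3 against 15870 CPM under isotype. Proliferation genes summed to 16.9 CPM against 101 CPM and to 22.1 CPM against 92.1 CPM in the same pairs. Fibroblast markers in the endothelial class summed to 352 CPM against 312 CPM and to 221 CPM against 686 CPM, with 0 or 1 of 10 at 0, and mural markers to 126 CPM against 337 CPM and to 185 CPM against 200 CPM, with 2 to 4 of 10 at 0. Platelet genes, given because platelets store PDGF, summed to 29.5 CPM against 55.4 CPM and to 35.9 CPM against 46.6 CPM, with 6 to 8 of 10 at 0. The part of these in the Pdgfa difference was not tested.

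**Figure D3:**
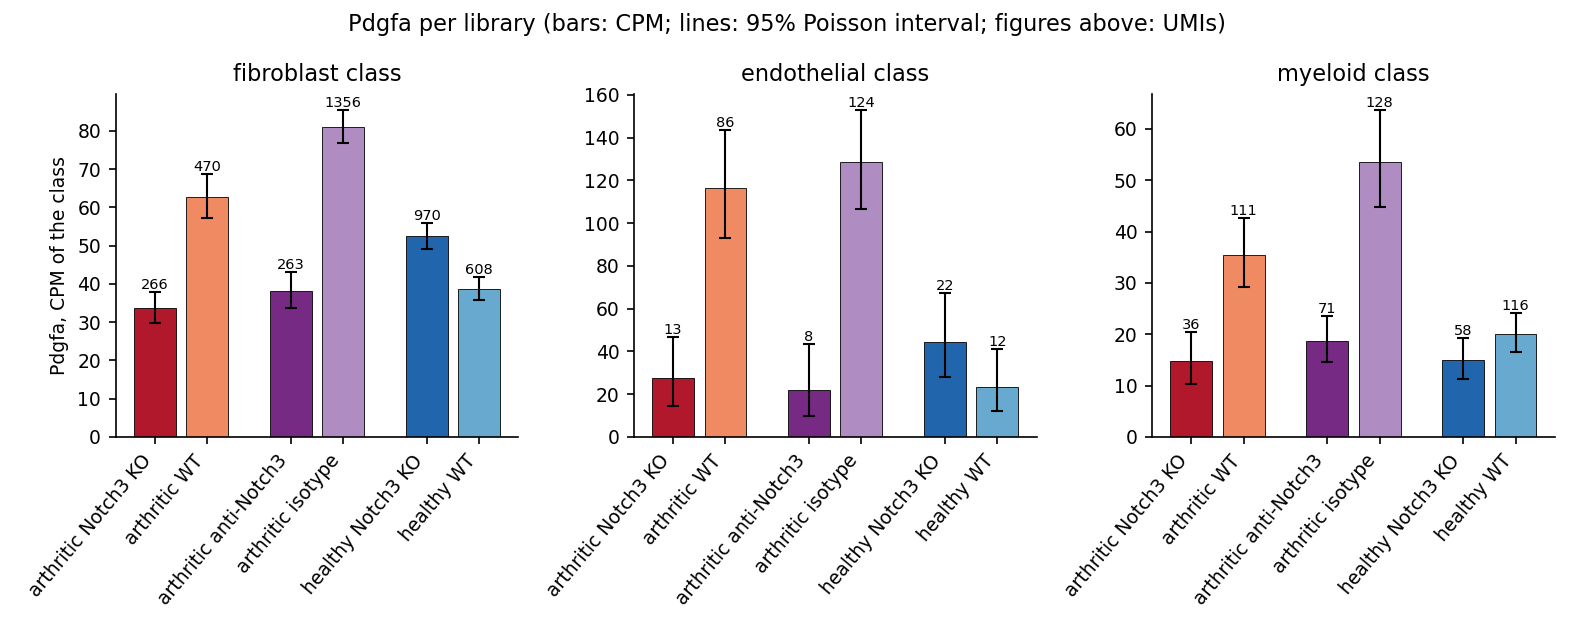
Pdgfa level (CPM of the class, linear axis from 0) in the fibroblast, endothelial and myeloid classes, with 1 bar per library, exact Poisson 95% intervals and the UMIs above. In each class the arthritic wild-type and isotype libraries are the highest, at 116 and 128 CPM in endothelial cells, 62.8 and 81.1 CPM in fibroblasts and 35.5 and 53.6 CPM in myeloid cells.

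Fibroblast Pdgfa moved in the same direction. It was at 33.6 CPM in arthritic knockout (266 UMIs) against 62.8 CPM in arthritic wild type (470 UMIs), and at 38.3 CPM under anti-Notch3 (263 UMIs) against 81.1 CPM under isotype (1356 UMIs), and the healthy libraries had 52.4 CPM in knockout and 38.7 CPM in wild type. The arthritic wild-type and isotype libraries were again the highest. Over the 2 arthritic pairs it fell by 0.92 ± 0.155 on the log2 scale (SE; edgeR adjusted p = 0.0275), but the call was lost with DESeq2 (adjusted p = 0.0631), with classes taken from clusters (0.0844) and with doublets kept (0.0554; 0.00889 to 0.0844 over the alternatives). Fibroblast Pdgfc was at 7.45 CPM in arthritic knockout (59 UMIs) against 17.6 CPM in arthritic wild type (132 UMIs), and at 11.6 CPM under anti-Notch3 (80 UMIs) against 30.1 CPM under isotype (504 UMIs), and the healthy libraries had 9.79 CPM in knockout and 8.78 CPM in wild type. The 2 arthritic libraries without Notch3 targeting stood above the other 4. Pdgfc fell by 1.24 ± 0.187 (edgeR adjusted p = 0.02), a call lost with DESeq2 (0.0736) and with classes from clusters (0.0567; 0.00387 to 0.0736 over the alternatives). In fibroblasts 497 of 11914 genes passed, 4.17%, and 2 of the 6 members tested did. Pdgfrb (-0.44 ± 0.151, adjusted p = 0.170), Pdgfrl (-0.55 ± 0.383, 0.490), Pdgfd (0.38 ± 0.243, 0.449) and Pdgfra (0.13 ± 0.179, 0.750) did not pass.

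Cluster shares of the fibroblast class also differed between these libraries. Cluster 8 (Saa3, Cxcl5) made up 0.0594% of the fibroblasts in arthritic knockout against 39.6% in arthritic wild type, and 1.88% under anti-Notch3 against 26.2% under isotype, and cluster 3 (C1qtnf3, Mfap4) 0.178% against 17.4% and 18.4% against 48.1%. Cluster 0, with the highest median Pdgfa, made up 7.48% in arthritic knockout against 6.46% in arthritic wild type, and 19.0% under anti-Notch3 against 11.9% under isotype, and cluster 2, with little Pdgfa, 24.8% against 5.0% and 11.1% against 2.10%. Between arthritic knockout and wild type, Pdgfa was below 0 on the log2 scale in 2 of the 5 fibroblast clusters with at least 30 cells in both libraries and at least 20 UMIs over the pair (-0.80 to 0.23, median 0.16), which do not include clusters 3 and 8. In cluster 0 it was at 134 CPM in arthritic knockout against 114 CPM in arthritic wild type. Between anti-Notch3 and isotype it was below 0 in 3 of 3 clusters by the same minimums (-1.58 to -0.28), with 26.6 CPM against 80.4 CPM in cluster 3. Pdgfc was below 0 in 3 of 3 clusters of the antibody pair (-1.17 to -0.38) and at -0.41 in the only cluster measured in the arthritic genotype pair. Stress genes in fibroblasts summed to 34520 CPM in arthritic knockout against 16970 CPM in arthritic wild type and to 20890 CPM under anti-Notch3 against 13620 CPM under isotype, and their part and that of the cluster shares was not tested.

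In myeloid cells Pdgfa was at 14.7 CPM in arthritic knockout (36 UMIs) against 35.5 CPM in arthritic wild type (111 UMIs), and at 18.6 CPM under anti-Notch3 (71 UMIs) against 53.6 CPM under isotype (128 UMIs), and the healthy libraries had 15.0 CPM in knockout and 20.1 CPM in wild type. The arthritic wild-type and isotype libraries were the highest here too. The log2 difference of -1.35 ± 0.223 did not pass (edgeR adjusted p = 0.279; 0.0394 without a filter on low counts, 0.0394 to 0.454 over the alternatives), and 0.0% of the 9499 myeloid genes did, although 856 had an unadjusted p under 0.05 and DESeq2 called 55. Of the 3 myeloid members tested, Pdgfa and Pdgfb had an unadjusted p under 0.05. Myeloid cluster 7 (Ms4a7, Trem2) held 3.25% of the myeloid cells in arthritic knockout against 44.2% in arthritic wild type, and 20.7% under anti-Notch3 against 59.3% under isotype. Inside cluster 7 Pdgfa was at 31.7 CPM under anti-Notch3 against 72.6 CPM under isotype. Among the ligands of the vessel, endothelial Pdgfb did not pass in these pairs (-0.11 ± 0.282, edgeR adjusted p = 0.865). Inside the 2 endothelial clusters measured, its log2 ratio was -0.88 and -0.76 for arthritic knockout over wild type. For anti-Notch3 over isotype it was -0.82 and 0.01 (at least 30 cells in both libraries and 20 UMIs over the pair). Endothelial Pdgfd was higher by 0.97 ± 0.369 and missed the threshold (adjusted p = 0.0515), passing with DESeq2-type size factors (0.0485) and with classes from clusters (0.0215; 0.0215 to 0.761 over the alternatives). Cluster 11, the cluster richer in Pdgfd, made up 75.8% of endothelial cells in arthritic knockout against 24.2% in arthritic wild type and 66.1% under anti-Notch3 against 35.1% under isotype. The part of these shares in the Pdgfb and Pdgfd values was not tested.

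Over all 3 pairs, with the healthy genotype pair added, no member passed in any class. In fibroblasts 0.0% of 12873 genes passed (988 at an unadjusted p under 0.05; DESeq2 called 161), in endothelial cells 0.0% of 6598 (534; DESeq2 26) and in myeloid cells 0.0% of 10385 (574; DESeq2 30). In each class 1 member had an unadjusted p under 0.05: Pdgfrb in fibroblasts (-0.62 ± 0.178, edgeR adjusted p = 0.512), Pdgfd in endothelial cells (0.79 ± 0.309, 0.579) and Pdgfa in myeloid cells (-0.95 ± 0.300, 0.810). A model with separate Notch3 effects, added after seeing the data, gave a difference between the arthritic pairs and the healthy pair of -3.25 ± 0.638 for endothelial Pdgfa (edgeR adjusted p = 2.282e-05, DESeq2 gives no adjusted p) and -1.43 ± 0.270 for fibroblast Pdgfa (adjusted p = 0.0425, DESeq2 0.216). This model passed 8.16% of 7441 endothelial, 2.23% of 13505 fibroblast and 0.0% of 11045 myeloid genes (896 myeloid genes at an unadjusted p under 0.05; DESeq2 33), and 1 of 3, 1 of 6 and 0 of 4 members. With DESeq2, 81 endothelial and 193 fibroblast genes passed in the same model. The model takes the single healthy pair to vary as the arthritic pairs do, and it shares the arthritic libraries with the fit of those pairs alone.

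Arthritic against healthy, fitted over both genotypes, moved no member past the threshold. The fit looks for a change shared by both genotypes and takes opposite changes as spread. Pdgfa had such changes, with log2 ratios of 2.26 in wild type and -0.68 in knockout endothelial cells, and 0.70 and -0.64 in fibroblasts. A change in 1 genotype alone is therefore not excluded by this fit. In fibroblasts 0.0% of 12474 genes passed (342 at an unadjusted p under 0.05; DESeq2 11), in endothelial cells 0.0% of 6126 (123; DESeq2 0) and in myeloid cells 0.108% of 10141. The member values nearest to it were fibroblast Pdgfrb (0.57 ± 0.287, edgeR adjusted p = 0.9996) and fibroblast Pdgfd (-0.53 ± 0.293, adjusted p = 0.9996). No member had an unadjusted p under 0.05 there.

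Single libraries allow ratios without a test, and the 5 ratios below share libraries. A ratio is given for a member with at least 20 UMIs over its pair, which 60 of the class and pair combinations had, and 27 of these passed 1.5-fold in either direction. In fibroblasts 2 of 6 members passed for knockout over wild type in arthritis, against 30.1% of all genes, 3 of 6 for anti-Notch3 over isotype, against 24.2%, and 3 of 6 for knockout over wild type in healthy mice, against 27.8%. For arthritic over healthy, 2 of 6 passed in knockout mice, against 19.7%, and 2 of 6 in wild type, against 34.8%. In endothelial cells the counts were 2 of 3 (background 42.2%), 1 of 3 (35.8%), 2 of 3 (31.4%), 2 of 3 (25.3%) and 2 of 3 (45.6%) in the same order of ratios, and in myeloid cells 2 of 3 (34.3%), 2 of 3 (23.7%), 0 of 3 (37.8%), 0 of 3 (20.0%) and 2 of 3 (47.2%). The members' counts stand beside shares of all genes that reach 47.2%, and no ratio has a replicate.

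Among the Notch3 pairs, fibroblast Pdgfra and Pdgfrb had their largest ratios in the healthy pair, and Pdgfrl in the antibody pair (log2 ratio -1.50). Pdgfra was at 207 CPM in arthritic knockout, 225 in arthritic wild type, 198 under anti-Notch3, 170 under isotype, 149 in healthy knockout and 316 in the healthy wild-type library, so that the highest and the lowest library were the 2 healthy ones (log2 ratio -1.09 for knockout over wild type). Pdgfrb was at 49.8 CPM in arthritic knockout, 68.6 in arthritic wild type, 50.3 under anti-Notch3, 75.2 under isotype, 28.1 in healthy knockout and 57.9 in the healthy wild-type library, with each Notch3-targeted library below its partner. Pdgfrl was at 107 CPM in arthritic knockout, 90.9 in arthritic wild type, 37.0 under anti-Notch3, 105 under isotype, 129 in healthy knockout and 82.9 in the healthy wild-type library, the anti-Notch3 library being the low one. In the healthy pair, Pdgfra was lower in knockout in 8 of 8 fibroblast clusters with those minimums (log2 ratios -1.21 to -0.66) and Pdgfrl higher in 8 of 8 (0.74 to 1.51), while Pdgfrb was lower in 7 of 8 (-0.86 at the lowest) and higher in cluster 0 (2.10, on 48 and 2 UMIs). Stress genes in these fibroblasts summed to 29040 CPM in healthy knockout against 21040 CPM in healthy wild type, and lining genes to 25750 CPM against 12280 CPM. The 9 erythroid markers found in the matrices summed to 4.97 CPM (4 at 0) against 487 CPM (3 at 0). Their part in the receptor ratios was not tested. The clusters of a pair come from the same 2 libraries, whose fibroblasts had median depths of 4764 UMIs in knockout and 8331 in wild type, and genotype and library preparation cannot be told apart with 1 library each.

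**Figure D4:**
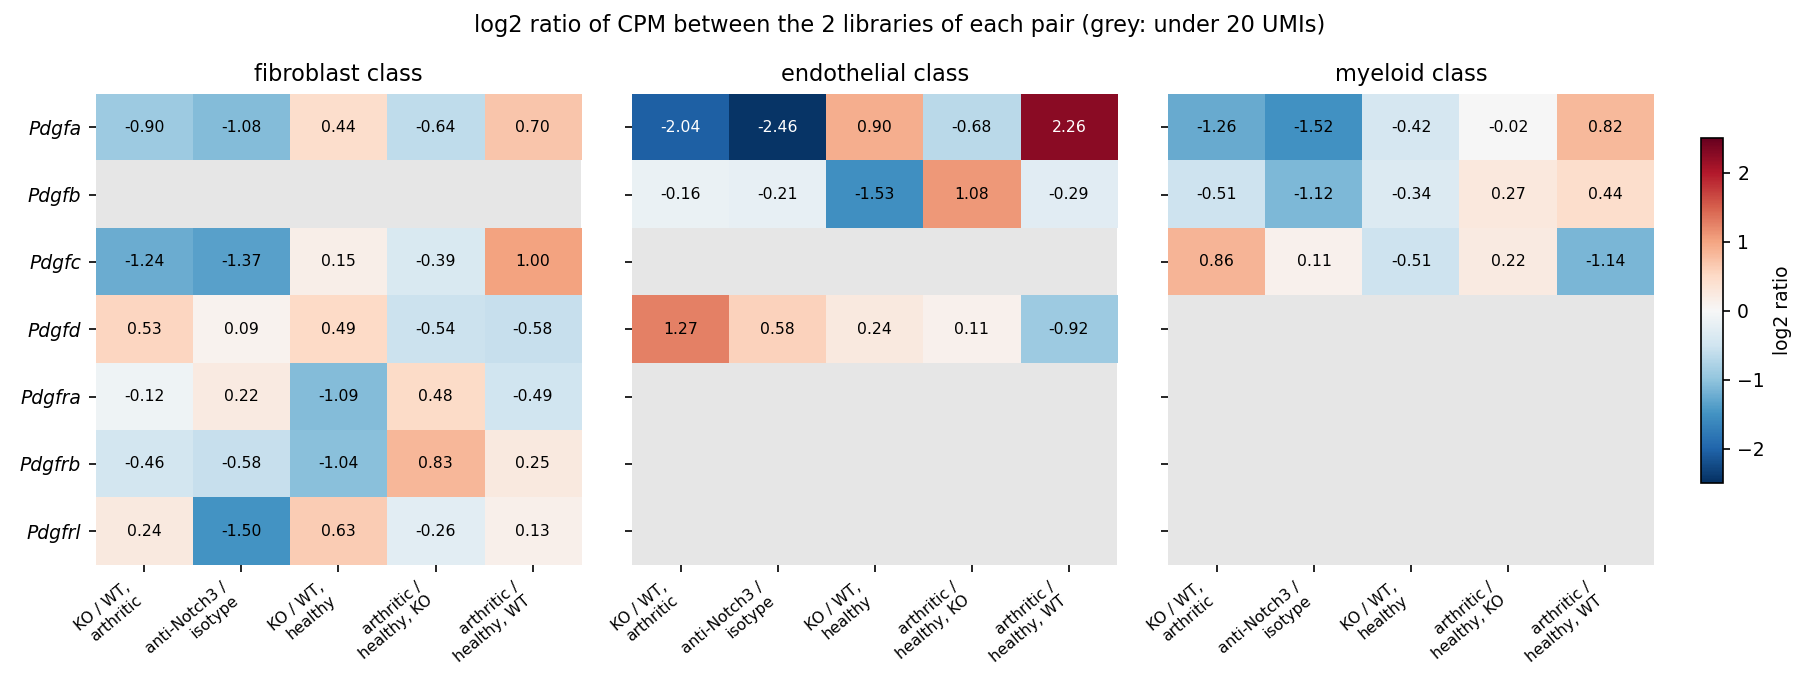
Log2 ratio of CPM between the 2 libraries of each pair (columns) for each PDGF gene (rows) in the fibroblast, endothelial and myeloid classes, red for higher and blue for lower in the library named first, grey where the pair held under 20 UMIs. Pdgfa is below 0 in all 3 classes for both arthritic Notch3 pairs (-0.90 and -1.08 in fibroblasts, -2.04 and -2.46 in endothelial cells, -1.26 and -1.52 in myeloid cells), and Pdgfra is at -1.09 in healthy fibroblasts.

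The genes around the ligands and receptors were read as 4 lists: 10 ligand-processing proteases and their inhibitors, 10 ligand-binding proteins and co-receptors, 22 signal transducers and 16 restraints of receptor signalling. Over the 2 arthritic pairs in fibroblasts, 1 of 8 tested processing genes fell, Pcsk5, a furin-type convertase (-2.65 ± 0.324, edgeR adjusted p = 0.0119), and none rose (list median -0.03, all genes -0.00). Of 9 binding genes 1 rose, Nrp1, a co-receptor shared with VEGF (0.92 ± 0.159, adjusted p = 0.0292; list median 0.04), and of 15 restraints 1 rose, Socs1, an inhibitor of cytokine signalling (1.58 ± 0.322, adjusted p = 0.0494; list median 0.09). None of the 22 transducers passed, and Pik3r1, a regulatory subunit of PI3-kinase, had the smallest p (0.58, edgeR adjusted p = 0.111). These counts stand beside the 4.17% of all fibroblast genes that passed in the same fit. Pcsk5 is among the leading genes of cluster 8, whose share differed between these libraries.

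In endothelial cells, of 6 binding genes Nrp1 rose (0.72 ± 0.225, edgeR adjusted p = 0.0119; list median -0.17, all genes -0.01), and Sparc, a matrix protein that binds PDGF-B (-0.95 ± 0.227, 0.000458), and the integrin gene Itgav (-1.42 ± 0.446, 0.0122) fell. Of 17 transducers 1 rose, Mapk3, which encodes the kinase ERK1 (0.69 ± 0.229, adjusted p = 0.0199). Of 15 restraints Socs1 (2.15 ± 0.277, edgeR adjusted p = 8.545e-13) and the receptor phosphatase gene Ptprj (1.97 ± 0.564, 0.00500) rose, and Spred1 (-1.51 ± 0.454, 0.00856) and Ptprk (-0.70 ± 0.254, 0.0378) fell. The endothelial counts stand beside the 16.4% of all genes that passed in the same fit. That fit uses a spread common to all genes and not a gene's own disagreement between pairs. DESeq2 called 244 of the 6771 genes, against 1109 with edgeR, and the list genes are given for edgeR alone. In myeloid cells no list gene passed, and the smallest p belonged to Cav1 (-2.90, adjusted p = 0.211) among restraints, Nrp1 (1.24, 0.317) among binding genes, Src (-3.47, 0.369) among transducers and Pcsk7 (0.51, 0.623) among processing genes. No list gene passed over all 3 pairs or for arthritic against healthy. There the smallest p of a list gene over 3 pairs was that of endothelial Socs1 (1.77, adjusted p = 0.202).

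Between classes the same lists were counted beside the 50.8%, 65.4% and 53.0% of all genes that passed in the contrasts of fibroblast against endothelial, myeloid against fibroblast and myeloid against endothelial cells. For fibroblasts against endothelial cells, 3 of 9 processing genes were higher and 2 lower (list median 0.48, all genes 0.13), with Pcsk6 (3.50 ± 0.366) and Pcsk5 (2.37 ± 0.541), both furin-type convertases, and the urokinase gene Plau (2.34 ± 0.611) on the fibroblast side. Of 9 binding genes 5 were higher and 3 lower (median 1.53), led by Gas1 (7.39 ± 0.397) and the endocytic co-receptor Lrp1 (6.57 ± 0.241), and Eng, an endothelial co-receptor for TGF-beta ligands, was lower (-3.39 ± 0.130). Of 22 transducers 5 were higher and 7 lower, and of 16 restraints 3 higher and 8 lower, and the lower ones were led by Ptprk (-2.83 ± 0.273), Spry1 (-2.73 ± 0.309) and Spry4 (-2.73 ± 0.388), the Sprouty genes being feedback inhibitors of receptor kinases. All genes named here had an edgeR adjusted p of at most 0.0044. For myeloid cells against fibroblasts the counts of higher and lower were 3 and 4 of 9 processing, 1 and 5 of 9 binding, 7 and 4 of 22 transducing and 4 and 9 of 16 restraining genes. For myeloid cells against endothelial cells they were 4 and 5, 3 and 5, 4 and 6, and 6 and 9.

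The genes whose level over 22 library and class units was most like that of a member were found by Pearson correlation of log2(CPM + 1) over 11794 genes, as a description, since the units share libraries and mainly separate classes. They were Ckap4, Dnajc18 and Apba3 for Pdgfa (r = 0.93 for the first), Rab11a, Bnip2 and Myh9 for Pdgfb (0.95), Slc46a1, Rnf150 and Sh3pxd2b for Pdgfc (0.96) and Ldb2, Tshz2 and Kank1 for Pdgfd (0.99). For the receptors they were Pde1a, Efs and Osr1 for Pdgfra (0.96), Hoxa10, Setbp1 and Hoxc9 for Pdgfrb (0.94) and Hoxc10 with the collagen genes Col3a1 and Col1a2 for Pdgfrl (0.98). The units hold no mural cells, which had too few cells in each library, so the likeness of Pdgfrb is set by fibroblasts against the other classes.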

How the data were processed

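The values deposited by the authors are raw UMI counts, one matrix a library, made with Cell Ranger 3.0.2 on mm10, per the submitters' processing notes. The sources used here state no barcode filter, and every barcode held at least 501 genes. Members, lists and tests were chosen with earlier results of these data known.

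Barcodes over 10% mitochondrial UMIs (414 of 18491) and doublets marked by Scrublet through scanpy 1.11.5 (175, 0.968%) were left out. A cell took the class with most of its 10 markers detected (at least 3, with a lead of 2; mural: at least 4 and 2 more than any class other than fibroblast), a rule set after seeing the data, and 459 cells stayed ungated. Of gated fibroblasts 98.3% lay in clusters of that class (leidenalg 0.10.2, resolution 1; no member or list gene among the clustering genes).

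Counts were summed per library and class and tested with edgeR 4.0.16 (TMM, filterByExpr, quasi-likelihood, Benjamini-Hochberg, threshold 0.05): classes with library as a block, Notch3 targeting with pair, and arthritis with genotype as a term, for classes of at least 30 cells in each library. With 1 library per group the p-values rest on the spread between pairs or libraries, moderated by the spread of all genes. In the planned edgeR fits with 1 residual degree of freedom, the spread of all genes counted for 4.1 to 6.6 prior degrees of freedom. That number was not computed for the added model with separate effects, which also has 1 residual degree of freedom. In the endothelial fit of the arthritic pairs the prior degrees of freedom were infinite. Its edgeR p-values thus use a spread common to all genes and not a gene's own disagreement between pairs. Ratios add 0.5 UMI to each count. Alternatives were DESeq2 1.42.0, other size factors, no filter, clusters as classes, doublets kept, 20% mitochondrial UMIs, and libraries or pairs left out. Named were all members, Notch3, the 3 genes most like each member, and the list genes that passed (at most 4 a list by size of change, otherwise the 2 with the smallest p), except that the lists of the myeloid contrasts, the transducers of the class contrasts and most fits without a call are given as counts. The fits were tested on simulated data. Some list genes, and the endothelial result of the processing list over the arthritic pairs, are not reported here.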

Additional observations from a re-analysis of the deposited data

Results flagged for a closer look

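Pdgfa met a test of the difference between groups, or had single-pair ratios past 1.5-fold in opposite directions under the same contrast. Other members also had ratios of opposite sign with at least 1 of them under 1.5-fold, such as myeloid Pdgfc for knockout over wild type (0.86 in arthritic and -0.51 in healthy mice) and endothelial Pdgfb for arthritic over healthy (1.08 in knockout and -0.29 in wild type). For Pdgfa, the Notch3 effect in the arthritic pairs minus that in the healthy pair was -1.43 (log2) in fibroblasts and -3.25 in endothelial cells. Both were tested in the model with separate effects, and the fibroblast value did not pass with DESeq2. Without a test of the difference, endothelial Pdgfa was at a log2 ratio of -2.04 for knockout over wild type in arthritic mice and 0.90 in healthy mice. For arthritic over healthy it was at -0.68 in knockout and 2.26 in wild-type endothelial cells, and at -0.64 in knockout and 0.70 in wild-type fibroblasts; these differences were not tested. The ratios share libraries, and each stands for 1 library a side. No group held enough libraries to look for a library far from the others.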

How the results depend on the processing

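Of the single member values, 621 held under the settings chosen at the outset, 9 lost and 10 gained a call and 6 values without a test moved. Under the settings added after seeing the data 85 held and 3 lost a call. Tested values are those called under at least 1 setting, and they held if direction and side of the threshold were kept. Ratios without a test held within their 95% counting error, whichever side of the fold they were on, and levels within the SD over libraries. Over the 3 Notch3 pairs 0 members were called, against 1 with no filter on low counts and 3 without the healthy pair (0 without either arthritic pair). Over the arthritic pairs 3 members were called, against 1 with DESeq2, and in the model with separate effects 2, against 0 with DESeq2. At 2-fold, 17 single-pair ratios passed, against 27 at 1.5-fold. With a library left out, 16 to 17 of the 21 member tests between classes and 9 to 10 of the 14 mural member tests passed. With all libraries the class contrasts passed 6, 6 and 5 members and the mural contrasts 4 and 6. Among values called under at least 1 setting, those that reversed were Pdgfb in mural against fibroblast cells with DESeq2 (3.70, adjusted p = 0.00104, from 0 mural UMIs) and Pdgfra in mural against endothelial cells with classes from clusters (-0.37, edgeR adjusted p = 0.875). Some values never called also changed sign. Pdgfra kept its direction in 9 of 13 settings for myeloid against endothelial cells and in 5 of 7 for arthritis in fibroblasts. Over the 3 Notch3 pairs fibroblast Pdgfra and Pdgfrl each kept it in 9 of 10. The causes were not tested.

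Mural cells (8 to 27 a library) could not be fitted at the planned 30 cells, and the fits of 2 pairs could not be fitted with a library left out, since no residual degree of freedom remains. No paired analysis was possible because the labels give no replicate numbers that would tie mice or preparations together; the pair terms of the Notch3 fits stand for disease and treatment arm. Mural values rest on few UMIs, and no value separates a group from its single library.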
